A study of Mus musculus with 18 samples.

Results

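Transcripts of 9 cholesterol synthesis enzymes were followed in mouse liver: Hmgcs1, Mvk, Mvd, Fdps, Sqle, Lss, Nsdhl, Sc5d and Dhcr7. They were taken by symbol from the 12019 genes of the authors' deposited table, and all 9 were found. Livers came from C57BL/6J mice, and every intervention began at 21 weeks of age and ran for 8 weeks. The labels list 3 libraries of mice under 30% caloric restriction, 3 of mice given TM5614 at 20 mg/kg/day, 3 of mice given rapamycin at 42 mg/kg/day, 3 of mice given metformin at 37.5 mg/kg/day and 6 of mice fed ad libitum without a compound. The 3 compounds were given in the food: TM5614 inhibits plasminogen activator inhibitor 1, rapamycin inhibits the kinase mTOR, and metformin lowers blood glucose. The labels give neither the sex of the mice nor the hour of collection. Whole livers were flushed with saline and poly(A) RNA was sequenced, so fewer cells of a type and less RNA per cell cannot be told apart.

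Liver cells make cholesterol from acetyl-CoA by way of mevalonate, squalene and lanosterol. When sterols in the endoplasmic reticulum run low, SCAP carries the transcription factor SREBP2 to the Golgi, where it is cut and released to activate nearly every gene of the pathway, together with the CCAAT-binding factor NF-Y. Insulin and feeding raise the activity of SREBP factors in liver, and dietary cholesterol lowers that of SREBP2.

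All values below are means of normalized counts per group, log2 fold changes over the ad libitum control and adjusted p from that table, and a gene is called changed at an adjusted p under 0.05. No value per library entered, so no SD is given, and the spread between libraries enters through the authors' adjusted p alone. The smallest control mean above 0 in the authors' deposited table was 0.315, against 0.299 to 0.322 in the 4 groups of 3 libraries. This control value is of the size of a mean over 3 libraries, while the labels list 6. How many libraries stand behind the control mean, and which, is not known. Depth per library is unknown.

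The promoters of these genes are shown because most of the enzymes moved in the same direction. RefSeq starts on the GRCm38.p6 build were found for 7 of the 9 genes; Fdps and Sqle have no entry in the table used. Below are the 250 bases before the start of Hmgcs1 (chr13:119690101-119690350, plus strand), Mvd (chr8:122443423-122443672, minus strand) and Sc5d (chr9:42264301-42264550, minus strand), which are among the members with the lowest log2 fold changes under caloric restriction. Dhcr7, at -1.22, lay between Sc5d (-1.36) and Mvd (-1.20) in that comparison, and its 3 annotated starts are described without their sequence. Capitals mark matches on either strand, so that a box on the other strand appears as its reverse complement. One motif searched was CCAAT, the box that NF-Y binds. Another was TCACNCCAC, a form of the sterol regulatory element that SREBP binds. The last was the GC box CCCGCCC.
Hmgcs1: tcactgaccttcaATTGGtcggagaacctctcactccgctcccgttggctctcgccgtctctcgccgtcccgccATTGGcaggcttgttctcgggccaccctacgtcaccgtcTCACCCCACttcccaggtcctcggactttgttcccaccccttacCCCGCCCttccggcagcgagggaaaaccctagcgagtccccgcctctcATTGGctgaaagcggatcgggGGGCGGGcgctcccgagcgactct
Mvd: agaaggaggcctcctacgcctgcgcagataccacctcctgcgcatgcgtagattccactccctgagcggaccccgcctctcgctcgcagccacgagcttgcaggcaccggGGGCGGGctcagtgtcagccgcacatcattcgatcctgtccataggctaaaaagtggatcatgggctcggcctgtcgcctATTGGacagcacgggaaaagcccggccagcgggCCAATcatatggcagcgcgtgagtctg
Sc5d: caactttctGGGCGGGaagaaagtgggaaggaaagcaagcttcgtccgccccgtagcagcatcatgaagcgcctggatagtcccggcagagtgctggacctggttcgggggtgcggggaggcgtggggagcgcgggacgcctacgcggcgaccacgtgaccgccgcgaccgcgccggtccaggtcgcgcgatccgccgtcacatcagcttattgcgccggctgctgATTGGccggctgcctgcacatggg

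The 7 genes have 9 annotated starts, and CCAAT was found on one strand or the other in the 250 bases before 7 of these starts, against 33.8% of the 32851 mouse promoters of that length. The match nearest the start began 45 bases before it in Hmgcs1, 27 in Mvd and 24 in Sc5d. Mvk, the kinase that was called under TM5614 and not under caloric restriction, held 5 matches, the nearest 14 bases before the start. Short windows on the nearest match, with CCAAT or its complement in capitals, show this stretch in Mvk (chr5:114444238-114444268, plus strand), Lss (chr10:76531526-76531565, plus strand) and Nsdhl (chrX:72918484-72918520, plus strand).
Mvk: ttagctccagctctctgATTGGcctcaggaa
Lss: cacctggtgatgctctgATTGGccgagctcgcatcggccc
Nsdhl: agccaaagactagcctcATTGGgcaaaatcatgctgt

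Dhcr7 has 3 annotated starts, and CCAAT was found before the last of them only, with 2 matches. TCACNCCAC was found in Hmgcs1 alone, 137 bases before the start, and in 1.05% of all promoters of this length. CCCGCCC was found before 7 of the 9 starts, with Nsdhl the 1 gene without it, and in 23.4% of all promoters. The 250 bases before the starts of Mvk and Nsdhl overlap annotated exons of Mmab and Cetn2, neighbouring genes that start on the other strand. Which gene of each pair a match there belongs to was not tested. A match is a string of letters and was not tied to binding by any measurement here.

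Under caloric restriction 7 of the 9 enzymes fell, none rose, and Mvk and Sqle did not pass. In the same comparison 9.24% of the 11760 genes with an adjusted p were called lower and 9.74% higher. All 9 log2 fold changes in the authors' deposited table were negative, from -1.68 for Hmgcs1 to -0.41 for Sqle, with a median of -0.95, where the median was 0.01 over the 11201 genes averaging at least 10 normalized counts. Under TM5614, Mvk and Sc5d fell and 7 did not pass, where 1.95% of 10834 genes were called lower and 2.01% higher. There 8 of the 9 log2 fold changes were negative and the median was -0.73, against -0.01 over all genes. No member passed under rapamycin or metformin. The enzymes were named with earlier results of these data known, so these counts describe them and set them apart from no other list.

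**Figure D1:**
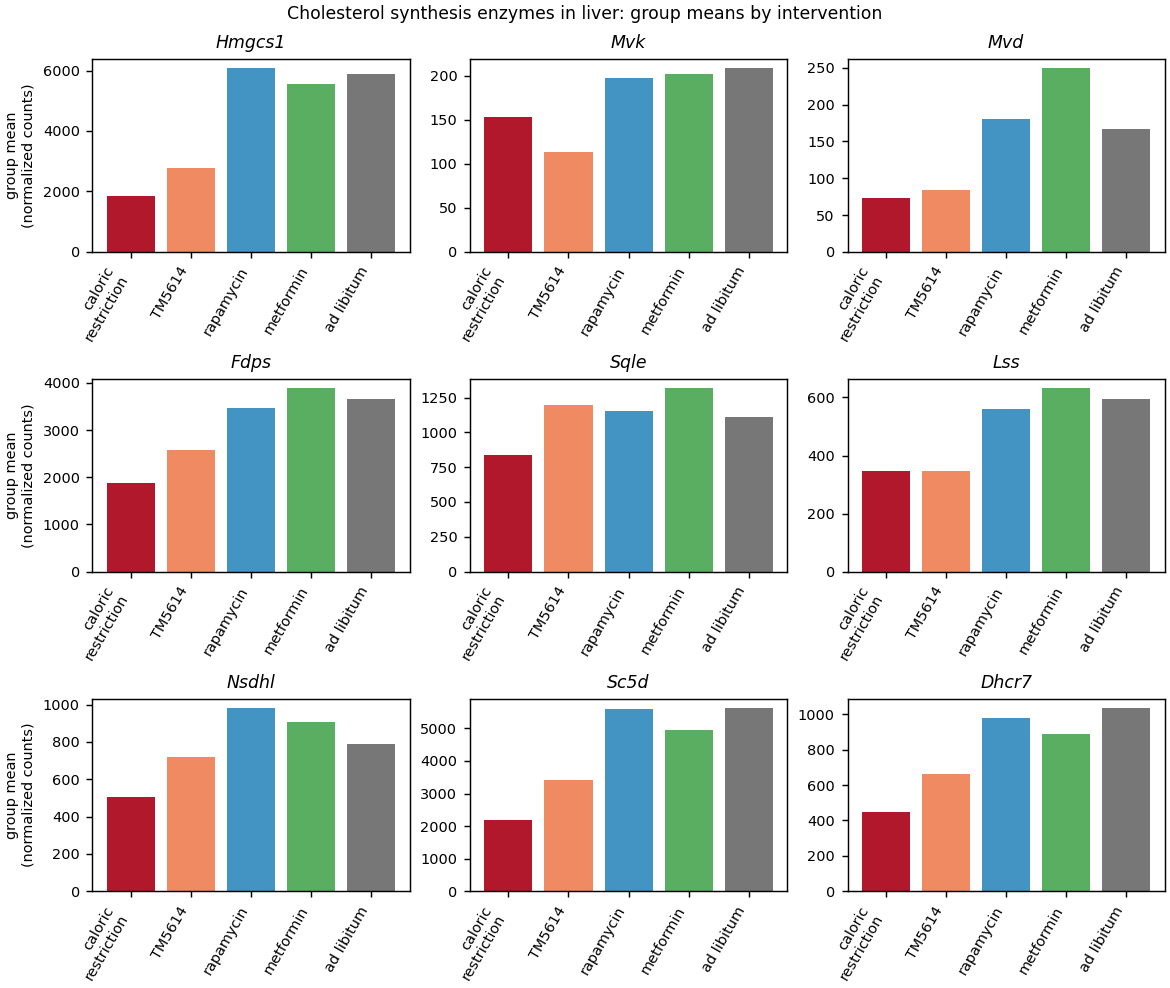
Group means of the 9 enzymes in normalized counts (vertical axes, each starting at 0) under caloric restriction, TM5614, rapamycin, metformin and ad libitum feeding; bars are the authors' group means and carry no error, since no value per library was used. Caloric restriction was the lowest group for 7 enzymes and TM5614 for 2 (Mvk and Lss).

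Among the enzymes that build isoprenoid units, Hmgcs1 showed the largest fold change of the 9 under caloric restriction. It encodes cytosolic HMG-CoA synthase, which joins acetyl-CoA and acetoacetyl-CoA at the entry of the pathway. The authors' deposited table gives Hmgcs1 means of 1843 normalized counts under caloric restriction, 2790.0 under TM5614, 6076 with rapamycin and 5564 with metformin, against 5900.0 in ad libitum livers. Caloric restriction and TM5614 were the low groups, and the means of the other 3 lay close together. Hmgcs1 fell by 68.8% under caloric restriction (log2 fold change -1.68, adjusted p = 0.00205, authors' deposited table). Under TM5614 its log2 fold change of -1.08 did not pass (adjusted p = 0.155, authors' deposited table), although it was the largest of the 9 there.

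Mvk, the kinase that phosphorylates mevalonate, was the member whose lowest mean was under TM5614 and whose fall was called there. Its means were 153 normalized counts under caloric restriction, 114 under TM5614, 197 with rapamycin and 202 with metformin, against 209 in ad libitum livers, in the authors' deposited table. Mvk fell by 45.6% under TM5614 (log2 fold change -0.88, adjusted p = 0.0341, authors' deposited table). Its value under caloric restriction was -0.44 (adjusted p = 0.255, authors' deposited table), and the difference between these changes was not tested.

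Mvd, the decarboxylase that makes isopentenyl diphosphate, had close log2 fold changes under caloric restriction and TM5614. The authors' deposited table lists 73.1 normalized counts under caloric restriction, 83.9 under TM5614, 180.0 with rapamycin and 249.4 with metformin, against 167 in ad libitum livers. It fell by 56.3% under caloric restriction (log2 fold change -1.20, adjusted p = 0.0282, authors' deposited table) and had -0.995 under TM5614, which did not pass (adjusted p = 0.165, authors' deposited table). Metformin gave Mvd the largest positive value of any member, 0.58, which did not pass (adjusted p = 0.941, authors' deposited table).

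Fdps makes farnesyl diphosphate, from which the routes to squalene, prenylated proteins, dolichol and ubiquinone part. Means in the authors' deposited table were 1887 normalized counts under caloric restriction, 2570.1 under TM5614, 3463 with rapamycin and 3892 with metformin, against 3650.1 in ad libitum livers. Fdps fell by 48.3% under caloric restriction (log2 fold change -0.95, adjusted p = 0.00151, authors' deposited table). It had -0.51 under TM5614, which did not pass (adjusted p = 0.249, authors' deposited table). Its exons overlap those of Gm43738, annotated on the same strand, over 26.7% of their merged length, and reads in that stretch could be divided between the 2 genes.

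**Figure D2:**
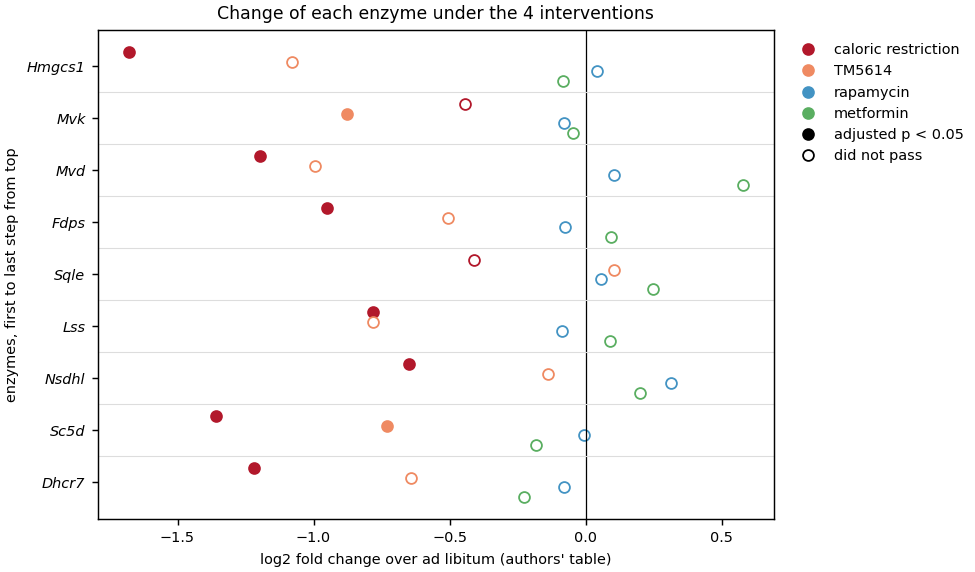
Log2 fold change over ad libitum (horizontal axis) of each enzyme, from the first step at the top to the last at the bottom, for the 4 interventions; filled points passed 0.05 by the authors' adjusted p and open points did not. Filled points are 7 for caloric restriction and 2 for TM5614, all left of 0.

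Squalene is turned into lanosterol by Sqle and Lss. Sqle, squalene epoxidase, which takes the first step that needs oxygen and is a known control point, was the member closest to no change under caloric restriction. Its means in the authors' deposited table were 837 normalized counts under caloric restriction, 1195 under TM5614, 1155 with rapamycin and 1319 with metformin, against 1110.4 in ad libitum livers. Its log2 fold changes of -0.41 under caloric restriction (adjusted p = 0.312) and 0.11 under TM5614 (adjusted p = 0.884) missed the threshold by the authors' deposited table. Sqle was the 1 member with a positive value under TM5614.

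Lss, the cyclase that closes the sterol rings to lanosterol, had nearly the same mean in the low groups. The authors' deposited table has 347 normalized counts under caloric restriction, 346 under TM5614, 560 with rapamycin and 633 with metformin, against 595 in ad libitum livers. Lss fell by 41.8% under caloric restriction (log2 fold change -0.78, authors' deposited table), and its adjusted p of 0.0477 was close to the threshold. The TM5614 value was also -0.78 and did not pass (adjusted p = 0.111, authors' deposited table), so a call in one comparison and none in the other stands beside changes of the same size.

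The late enzymes that trim lanosterol to cholesterol held the calls with the smallest adjusted p. Nsdhl, a dehydrogenase of the demethylation steps, had means of 504 normalized counts under caloric restriction, 720 under TM5614, 983 with rapamycin and 908 with metformin, against 791 in ad libitum livers, in the authors' deposited table. It fell by 36.3% under caloric restriction (log2 fold change -0.65, adjusted p = 0.00113, authors' deposited table), the smallest change among the 7 called. Under TM5614 it had -0.14 (adjusted p = 0.723), and under rapamycin it had the largest value of the 9, 0.31 (adjusted p = 0.452), neither passing (authors' deposited table).

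Sc5d, the desaturase that makes the precursor of the last step, was the member called in both comparisons. Its means in the authors' deposited table were 2196 normalized counts under caloric restriction, 3402 under TM5614, 5610.1 with rapamycin and 4961 with metformin, against 5636 in ad libitum livers. Sc5d fell to 0.390 of the ad libitum mean under caloric restriction (log2 fold change -1.36, adjusted p = 5.83e-13, authors' deposited table). Under TM5614 it fell to 0.604 of the ad libitum mean (log2 fold change -0.73, adjusted p = 0.00322, authors' deposited table). The difference between these changes was not tested.

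Dhcr7 reduces the product of Sc5d to cholesterol and followed the same order of groups at its low end. The authors' deposited table gives 446 normalized counts under caloric restriction, 664 under TM5614, 981 with rapamycin and 887 with metformin, against 1037 in ad libitum livers. It fell to 0.430 of the ad libitum mean under caloric restriction (log2 fold change -1.22, adjusted p = 2.35e-06, authors' deposited table). The TM5614 value of -0.64 did not pass (adjusted p = 0.0748, authors' deposited table) and was the closest to the threshold among the members not called there.

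In 8 of the 9 enzymes, Sqle being the exception, the means under caloric restriction and under TM5614 both lay below those of the other 3 groups. Caloric restriction lay below TM5614 in 7 of 9, with log2 ratios of the means from -0.63 for Sc5d to -0.20 for Mvd. Lss had a ratio of 0.00 and Mvk one of 0.44, TM5614 being the lower for Mvk. These ratios have no replicate check. Both comparisons share the ad libitum control, so their values stand side by side and no overlap is read from them. Summed over the 9 enzymes, the authors' means came to 0.0990% of all normalized counts of the table under caloric restriction, 0.153% under TM5614, 0.242% with rapamycin and 0.224% with metformin, against 0.245% in ad libitum livers. These sums hold Rn45s, the ribosomal RNA precursor, which had 39519 normalized counts under caloric restriction, 10283 under TM5614, 44095 with rapamycin and 366479 with metformin, against 17687 in ad libitum livers in the authors' deposited table. It was called higher under metformin (log2 fold change 4.37, adjusted p = 0.00561, authors' deposited table) and in no other comparison.

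**Figure D3:**
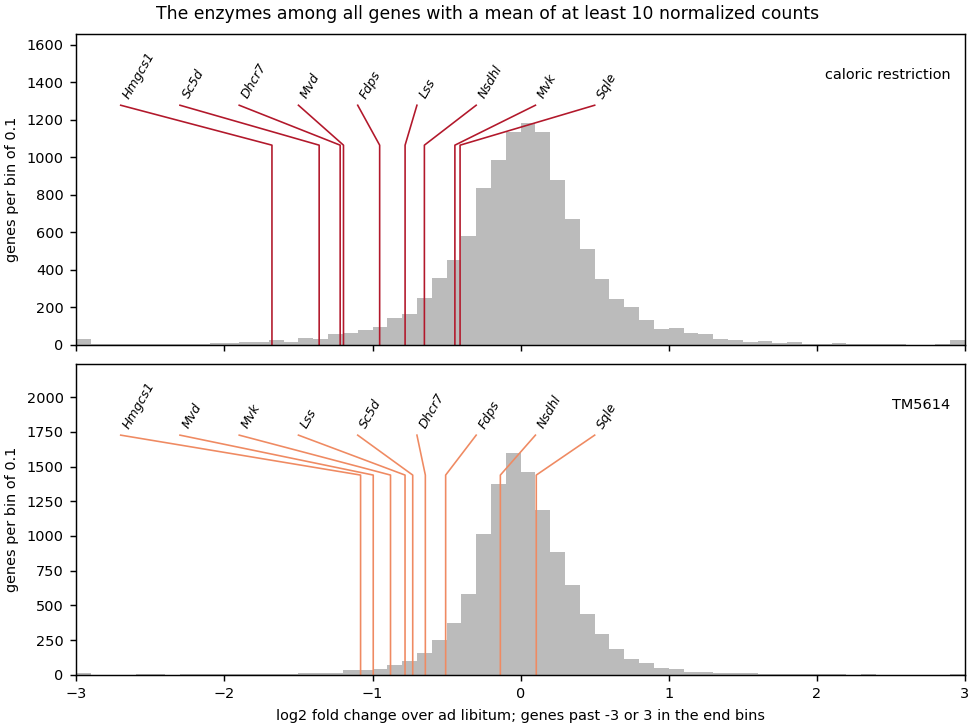
Number of genes (vertical axis) by log2 fold change over ad libitum (horizontal axis, bins of 0.1) for 11201 genes averaging at least 10 normalized counts, under caloric restriction above and TM5614 below; lines mark the 9 enzymes. All 9 lines lie left of 0 under caloric restriction and 8 do under TM5614.

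Within all genes of that level, 1.12% had a lower log2 fold change than Hmgcs1 under caloric restriction, 1.83% than Sc5d and 2.41% than Dhcr7. The share was 15.0% for Mvk and 16.4% for Sqle, which lie in the shoulder of the distribution. Under TM5614, 1.09% of genes lay below Hmgcs1, 1.34% below Mvd and 1.88% below Mvk, and 64.8% below Sqle.

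Rapamycin left all 9 enzymes without a call. The log2 fold changes in the authors' deposited table ran from -0.09 for Lss to 0.31 for Nsdhl, with 5 of 9 negative, a median of -0.01 and adjusted p from 0.452 to 0.994. The rates over all 10369 tested genes were 0.675% called lower and 0.714% called higher. Under metformin the values ran from -0.23 for Dhcr7 to 0.58 for Mvd in the authors' deposited table, with 4 of 9 negative, a median of 0.09 and adjusted p from 0.941 to 0.998. There 0.0816% of 7350 genes were called lower and 0.163% higher. Without values per library no interval can be set on these differences, so the absence of a call does not show that the enzymes stayed at the control level.

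Levels were set against each other only per length, as normalized counts per kilobase of exons in GENCODE vM21. Hmgcs1, Fdps and Sc5d were the 3 highest of the 9 and Mvk, Mvd and Lss the 3 lowest in all 5 groups, both with merged exons and with the longest coding transcript as the length. With merged exons Hmgcs1 had 401 normalized counts per kilobase under caloric restriction and 1284 in ad libitum livers. On the same scale Sc5d had 451 under caloric restriction and 1158 in ad libitum livers, and Fdps had 449 under caloric restriction and 867 in ad libitum livers. Lss had 32.1 normalized counts per kilobase under caloric restriction and 55.2 in ad libitum livers. The order of the top 3 depends on the length taken.

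All 9 genes are protein-coding, lie on 9 different chromosomes and have 1 value each; coordinates are those of GENCODE vM21 on mm10. Hmgcs1 lies on chromosome 13 from 119690379 to 119708260, Mvk on chromosome 5 from 114444269 to 114460591, and Mvd on chromosome 8 from 122433601 to 122443422. Fdps lies on chromosome 3 from 89093588 to 89101959, Sqle on chromosome 15 from 59315077 to 59331192, and Lss on chromosome 10 from 76531588 to 76557138. Nsdhl lies on chromosome X from 72918557 to 72958514, Sc5d on chromosome 9 from 42251595 to 42264256, and Dhcr7 on chromosome 7 from 143823145 to 143848410. Antisense genes overlap 12.1% of the merged exons of Hmgcs1 (Gm48342) and 3.53% of those of Lss (4930483K19Rik), and whether strand was used in counting is not given in the sources used here.

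Starts of 3 enzymes lie within 1 kb of a start on the other strand. Mvk and Mmab, an enzyme of cobalamin metabolism, start 209 bases apart. Mmab had -0.43 under caloric restriction (adjusted p = 0.140) and -0.36 under TM5614 (adjusted p = 0.357), both short of a call in the authors' deposited table. Cetn2, 146 bases from Nsdhl, and Nadsyn1, 296 bases from Dhcr7, had -0.46 and -0.27 under caloric restriction and were not called either (adjusted p = 0.104 for Cetn2 and 0.246 for Nadsyn1, authors' deposited table).

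The rest of the pathway comes from a list of 23 genes, chosen for the steps from acetyl-CoA to cholesterol, that holds 14 others. Of these 3 fell and 11 did not pass under caloric restriction, with a median log2 fold change of -0.25. Over all genes 9.24% were called lower in that comparison, and the median of those averaging at least 10 normalized counts was 0.01. The 9 were named with these results known, so the lists are not set against each other. The 3 were the thiolases Acat1 (-0.28, adjusted p = 0.00232) and Acat2 (-0.76, adjusted p = 0.0117), and 0610007P14Rik (-0.52, adjusted p = 0.00129), all from the authors' deposited table. The last is an older name of Erg28, a scaffold of the sterol demethylation complex first described in yeast. Under TM5614, 0610007P14Rik fell (-0.64, adjusted p = 6.49e-04, authors' deposited table) and the other 13 did not pass, where 1.95% of all genes were called lower. Under rapamycin Acat1 rose (0.28, adjusted p = 0.0238, authors' deposited table) and 13 did not pass, where 0.714% of all genes were called higher. None of the 14 passed under metformin.

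**Figure D4:**
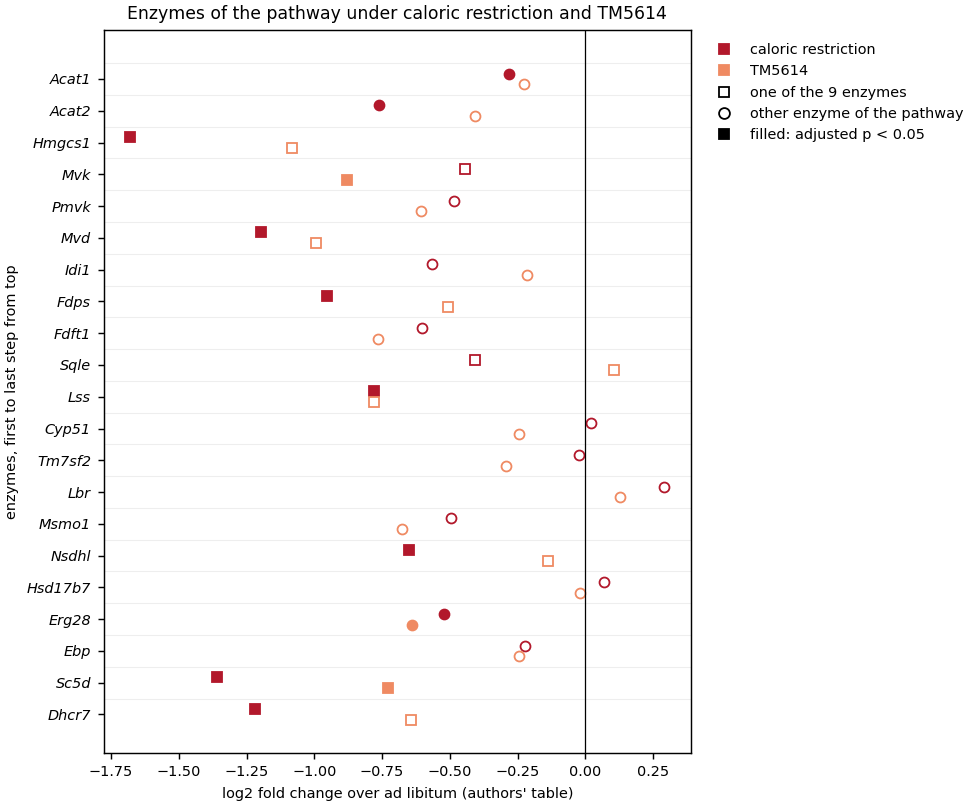
Log2 fold change over ad libitum (horizontal axis) of 21 of the 23 pathway genes, first step at the top, under caloric restriction and TM5614; squares are the 9 enzymes and circles 12 of the 14 others, and filled symbols passed 0.05 by the authors' adjusted p. Of the 21, 10 are filled for caloric restriction and 3 for TM5614, all on the negative side.

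Of 8 genes in branches that leave the pathway before sterols, 3 fell, 1 rose and 4 did not pass under caloric restriction, where 9.24% of all genes were called lower and 9.74% higher. Coq2 (-0.42) and Pdss2 (-0.55) of ubiquinone synthesis and Dhdds (-0.57) of dolichol synthesis fell, while Nus1 (0.57), the partner of Dhdds, rose in the authors' deposited table. None passed under TM5614, nor among the 7 with an adjusted p under rapamycin and the 4 with one under metformin.

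Of 16 genes that control SREBP, 2 were called under caloric restriction, beside the 9.24% lower and 9.74% higher over all genes. In that comparison Scap, the escort of SREBP, fell (-0.54, adjusted p = 0.00211), 1 other gene rose and 14 were not called by the authors' deposited table. Under TM5614, Insig2, which retains SCAP in the endoplasmic reticulum, was the 1 of 16 that passed (log2 fold change -1.07, adjusted p = 0.00183, authors' deposited table), where 1.95% of all genes were called lower. None passed under rapamycin, nor among the 13 with an adjusted p under metformin. The means of Insig2 in the authors' deposited table were 2133 normalized counts under caloric restriction, 1123 under TM5614, 3396 with rapamycin and 1551 with metformin, against 2356 in ad libitum livers. For Srebf2, the gene of SREBP2, the authors' deposited table has 0.10 under caloric restriction (adjusted p = 0.812) and -0.18 under TM5614 (adjusted p = 0.731), neither passing.

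Lists of sterol handling genes were read beside the 9.74% of all genes called higher and 9.24% called lower under caloric restriction. Of 10 uptake and transport genes 3 rose, Scarb1 (0.54), Npc2 (0.34) and Npc1 (0.54, adjusted p = 0.0492), while 7 were not called (authors' deposited table). Of 7 genes of sterol efflux and of the oxysterol receptor LXR and its targets, Abcg5 (0.88, adjusted p = 4.68e-10) and Abcg8 (0.57, adjusted p = 0.00283) rose in the authors' deposited table; together they form the pump that moves cholesterol into bile. Of 5 ester genes Lcat (0.77) and Nceh1 (0.77) rose, and of 6 genes of the route to bile acids Cyp39a1 (2.39) and Cyp27a1 (0.35) rose and Cyp8b1 (-1.44) and Cyp7b1 (-1.17) fell in the authors' deposited table. The median log2 fold changes under caloric restriction were near 0 in these 4 lists, at 0.06 for uptake and transport, -0.09 for efflux and LXR, 0.02 for esters and 0.07 for bile acids. None of these genes with an adjusted p passed under TM5614, rapamycin or metformin, and 1 under rapamycin and 3 under metformin have none. The fatty acid synthesis list had 9 falls and 1 rise among 15 genes under caloric restriction with a median of -1.15. Under TM5614 Acly (-0.66), Elovl5 (-0.74) and Fasn (-0.82) fell while 12 were not called (authors' deposited table), with a median of -0.06. Over all genes 1.95% were called lower under TM5614. Under rapamycin Me1 and Scd1 of the fatty acid list rose (authors' deposited table), where 0.714% of all genes were called higher. None of the 14 with an adjusted p passed under metformin.

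The 6 hepatocyte markers made up 12.2% of all normalized counts under caloric restriction, 10.3% under TM5614, 9.05% with rapamycin and 10.2% with metformin, against 10.03% in ad libitum livers. Most of these sums was Alb, the gene of albumin. It had 858112 of 1.02e+06 normalized counts under caloric restriction and 606485 of 782568 in ad libitum livers (log2 fold change 0.50, adjusted p = 1.7e-05, authors' deposited table). The summed share thus mainly follows 1 gene. With caloric restriction 2 of the 6 hepatocyte markers, Alb among them, rose, 1 fell and 3 did not pass. Of 10 Kupffer cell markers, 9 of them with an adjusted p, 4 fell under caloric restriction, where 9.24% of all genes were called lower. Summed means of the 10 were 995 normalized counts under caloric restriction, 1533 under TM5614, 1616 with rapamycin and 1435 with metformin, against 2050.4 in ad libitum livers in the authors' deposited table. Within these sums Marco had 32.0 under caloric restriction, 44.5 under TM5614, 43.6 with rapamycin and 27.3 with metformin, against 261 in ad libitum livers. It has no adjusted p in any comparison, so part of each gap rests on an untested gene. Pericentral hepatocyte markers held 4 rises among 8 under caloric restriction and 1 under TM5614, and periportal ones 2 rises and 1 fall among 7 under caloric restriction and 1 fall under TM5614. Over all genes 9.74% were called higher under caloric restriction, and 1.95% lower and 2.01% higher under TM5614. Stellate cell markers had 1 fall among 7 and erythroid markers 1 among 3 under caloric restriction. Sinusoidal endothelial markers had 2 falls among 8 under rapamycin, where 0.675% of all genes were called lower. Cholangiocyte, B cell, neutrophil and adipocyte markers held no call. Of these, 2 of 5 cholangiocyte markers have an adjusted p under each compound, and under metformin none of the B cell and neutrophil markers has one. The 6 pancreatic acinar markers summed to 3.43 under caloric restriction, 2.49 under TM5614, 4.59 with rapamycin and 3.75 with metformin, against 283 in ad libitum livers in the authors' deposited table, and 5 of the 6 are listed at 0 in at least 1 group of treated mice. Of the 6, Cela2a alone has an adjusted p and was called lower under caloric restriction and under TM5614 (authors' deposited table). The part of these cells in the enzymes' values was not tested.

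Set against the mean of the other 3 treated groups, which leaves the control out, all 9 enzymes were lower under caloric restriction, with log2 ratios from -1.38 for Hmgcs1 to -0.16 for Mvk. Under TM5614 the same ratio was negative for 8 of 9, from -0.997 for Mvd to -0.15 for Nsdhl, and 0.11 for Sqle. These ratios carry no test.

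The genes whose group means ran most like the average of the 9 were ranked by the Euclidean distance between centred log2 profiles over the 5 groups, among 8554 other genes with a mean of at least 50. The nearest were Adh4 (distance 0.19), Arap1 (0.19), Gstm6 (0.21), Thyn1 (0.21), Mad2l2 (0.21) and Svil (0.22). Fdps, at 0.15, was the member closest to that average, and Mvd, at 0.66, the farthest. With the members included, Fdps ranked 1 of 8563 genes, Mvk 576, Hmgcs1 741, Sqle 830 and Mvd 880. Many genes outside the pathway list thus lay nearer the average than these last members did. The nearest genes were picked for this pattern, so that their own fold changes add nothing to it. The distance rests on 5 group means and was given no test.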

How the data were processed

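The authors' deposited table of comparisons holds, per the file headers, a normalized signal for each of 5 groups, log2 fold changes and adjusted p-values of each intervention over the control, and gene symbols. The table's name gives DESeq2 as the authors' tool; judged from its values, the signal averages gene counts scaled by size factors. The deposited log2 fold changes of the enzymes lay within 0.01 of the log2 ratio of group means. Reads were aligned with HISAT2 2.0.5 to mm10, per the submitters' processing notes; how genes were counted, with which annotation and strand, is not given in the sources used here. A second table has 18 columns of values per library with codes found in no label, and none of them was used. The tests planned on values per library were therefore not run, and calls are the authors'. The design text gives 30 mice and the labels 18 libraries; where libraries did not come from separate mice, p-values measure only the spread between these libraries, which may be technical.

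Members and lists were chosen with earlier results of these data known. Named genes are the 9 enzymes, up to 4 called genes per list and comparison by smallest adjusted p, and 6 pattern neighbours; Srebf2 and the genes at divergent starts were added after their values were seen. Some genes that enter the list counts are not reported here by name. List medians cover genes with a mean of at least 10. Symbols missing from the table were matched through RefSeq synonyms of a single gene. Counting functions were tested on simulated data. Alternatives were other thresholds, pseudocounts of 1 and 10, other scalings and other baselines. Python 3.11.15 with pandas 2.3.3 was used.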

Additional observations from a re-analysis of the deposited data

Results flagged for a closer look

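The authors' deposited table also has log2 fold changes headed TM5441, with no adjusted p and no such name among the labels. All 9 enzymes are negative there, from -0.89 for Mvd to -0.27 for Sqle in the authors' deposited table. Their median is -0.56, where 51.0% of 11201 genes averaging at least 10 normalized counts are negative and the median of those genes is -0.01. The column drew attention as a signal in data that no comparison used. Which control and how many libraries stand behind it is not known, and no test was made.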

How the results depend on the processing

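The 7 falls under caloric restriction became 5 at an adjusted p under 0.01, where Mvd and Lss did not pass, and were 7 at 0.1. Over all genes 5.85% were called lower in that comparison at 0.01 and 11.8% at 0.1. The 2 falls under TM5614 became 1 at 0.01 (Sc5d) and 3 at 0.1, where the share of all genes called lower was 0.692% at 0.01 and 3.53% at 0.1. Over the 23 pathway genes, the 3 falls under TM5614 became 6 at 0.1, and the 1 rise under rapamycin became 0 at 0.01, where 0.193% of all genes were called higher. Pseudocounts of 1 and 10, recentring on the median of all genes and rescaling to equal sums without the ribosomal RNA precursor Rn45s (a shift of -0.10 on the log2 scale for caloric restriction) moved no median of the 9 by over 0.1 and kept the sign of all 9 log2 fold changes in each comparison. Against the other 3 treated groups the median under caloric restriction was -0.81 and that under TM5614 -0.32, while rapamycin and metformin each had 0.41, where rapamycin kept 4 and metformin 5 of the 9 signs; for these last 2 the baseline holds both low groups. Leaving out replicates, and limma on values per library, were not run, since no column could be given a sample. No paired analysis was possible because the columns per library carry no replicate number of the labels. How far depth limits these values is unknown.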
